A study of Mus musculus with 150 samples.

Results

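Immediate early response genes are transcribed within minutes of a stimulus, without the need for new protein synthesis. The 10 members described here were chosen by name: Fos, Fosb, Jun, Junb, Egr1, Atf3, Ier2, Klf2, Klf4 and Klf6. All 10 had a row in the bulk table, of 24341 genes in all, and in the single-cell tables, of 31175 genes. Both data sets came from mouse lung, and the design text puts the question as how progenitor cells behave with and without p53, a stress-responsive transcription factor (gene Trp53).

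Bulk data comprised 3 libraries labelled p53 knockout (replicates 7, 8 and 10), and 3 labelled wild type (replicates 1, 5 and 6). The deposited column names of every library but wild-type replicate 6 begin with the word second, whose meaning is not stated. All bulk libraries came from mice with the Scgb1a1-CreERTM and Rosa26-mT/mG alleles, which carried p53flox/flox in the knockout group and p53+/+ in the wild-type group. Mice of both genotypes were 8 to 12 weeks old, carried the same Cre and reporter and received tamoxifen, which activates this Cre; the sample titles name day 30 and the protocol names day 70 after it. The Scgb1a1 promoter drives the Cre, so deletion and the green reporter start in Scgb1a1-expressing cells, chiefly the club cells of the airway, and are kept in their progeny. Sorted cells were GFP and EpCAM positive and negative for CD31, CD34, CD45 and the dead-cell dye 7AAD. The single-cell set came from 1 Fluidigm C1 chip per genotype, on which cells are captured in separate wells, and 61 cells labelled p53-/- and 66 wild-type cells were kept. The labels of both chips give tamoxifen at 250 mg/kg, the protocols of the cells name both a full and a floxed p53 allele, and the age of these mice and whether the cells were fresh or cultured are not given in the sources used here. With 1 chip per genotype, genotype and chip cannot be told apart, and cells are not replicates.

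In the usual scheme, growth factor, stress and calcium signals reach these promoters through serum response factor with its partners and through CREB and its relatives. Fos, Fosb, Jun and Junb encode basic leucine zipper proteins that pair to form the transcription factor AP-1, and Atf3 encodes a related zipper protein that is induced by stress. Egr1 encodes a zinc-finger factor, Ier2 a small nuclear protein, and Klf2, Klf4 and Klf6 zinc-finger factors of the Krüppel-like family, of which Klf2 is best known from endothelial cells and resting lymphocytes and Klf4 from epithelial barriers. Transcripts of this kind are also known to be induced while a tissue is taken apart into single cells, and no undissociated lung was among the samples.

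The promoters are shown for the 4 leucine zipper genes whose window holds the letters TGACG, the core of the CREB site. Each run gives the 250 bases before a transcript start of the gene on the gene's own strand, 5′ to 3′, from RefSeq on GRCm38.p6. Capitals mark TGACG, also where it lies on the other strand and is read in reverse complement, as in Atf3. In Fos they mark a TATA box as well, with the letters TATAAA.
Fos: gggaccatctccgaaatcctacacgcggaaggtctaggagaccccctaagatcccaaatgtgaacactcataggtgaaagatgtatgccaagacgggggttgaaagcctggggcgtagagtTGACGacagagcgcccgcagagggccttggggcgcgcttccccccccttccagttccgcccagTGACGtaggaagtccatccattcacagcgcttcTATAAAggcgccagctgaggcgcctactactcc
Fosb: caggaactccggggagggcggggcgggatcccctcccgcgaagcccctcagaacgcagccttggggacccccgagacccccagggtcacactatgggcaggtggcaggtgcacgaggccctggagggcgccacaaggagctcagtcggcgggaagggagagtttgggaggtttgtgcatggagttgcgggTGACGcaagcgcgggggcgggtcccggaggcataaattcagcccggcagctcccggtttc
Junb: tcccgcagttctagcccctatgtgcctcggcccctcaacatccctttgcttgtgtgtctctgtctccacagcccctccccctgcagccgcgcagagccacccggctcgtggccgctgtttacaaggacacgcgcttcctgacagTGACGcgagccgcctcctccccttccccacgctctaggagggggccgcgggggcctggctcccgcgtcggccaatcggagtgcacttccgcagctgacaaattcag
Atf3: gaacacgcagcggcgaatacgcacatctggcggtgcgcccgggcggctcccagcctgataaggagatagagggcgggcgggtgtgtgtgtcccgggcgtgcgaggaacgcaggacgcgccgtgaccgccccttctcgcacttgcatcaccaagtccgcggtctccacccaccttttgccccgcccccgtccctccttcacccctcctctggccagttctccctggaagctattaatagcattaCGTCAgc
The windows are chr12:85473640-85473889 on the plus strand for Fos, chr7:19310046-19310295 on the minus strand for Fosb, chr8:84978749-84978998 on the minus strand for Junb and chr1:191183334-191183583 on the minus strand for Atf3. The Atf3 window lies inside the annotated gene, chr1:191170296-191218039, so it precedes an internal start. Windows were matched for 8 of the 10 members, those other than Ier2 and Egr1. Searched on both strands, TGACG was in 6 of these 8 windows (the 4 shown, Klf2 and Klf4), and in 17.8% of all 32851 RefSeq promoter windows of that length. Jun and Klf6 did not hold it. The full CREB site TGACGTCA, which contains TGACG, was in 0 of 8 windows and in 1.55% of all windows. The AP-1 site TGANTCA was in 0 of 8 and in 6.75% of all, and the CArG box, the serum response factor motif, in 0 of 8 and in 1.47%. The letters GCGNGGGCG, an Egr1 motif, was in the windows of Fosb, Klf2 and Klf4 and in 4.70% of all windows. TATAAA was in that of Fos, 33 bases before the start, and in 12.4% of all. Such matches describe letters and do not show that a factor binds. Only these 250 bases were searched, so a count of 0 does not show that a gene lacks the motif elsewhere.

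In bulk, values are FPKM, fragments scaled to transcript length and to library size, so levels can be compared between genes. Summed FPKM over genes without a marked entry ranged from 424751 to 581094 per library, with 11735 to 11925 genes at 1 FPKM or more. The read depth behind FPKM and TPM values is unknown. Trp53 had 8.63, 9.98 and 7.56 FPKM in the knockout libraries, against 16.6, 22.2 and 21.7 FPKM in the wild-type libraries. The groups did not overlap, but the limma adjusted p over all genes was 0.144. Wild-type replicate 1 stood apart from the other 5 libraries: its club cell markers averaged 8.93 on the log2(FPKM + 1) scale, against 10.1 to 10.7 in the others, and its alveolar type 2 markers averaged 9.92, against 8.42 to 8.82. In the single cells Trp53 went against the label, being detected in 16 of 61 cells labelled knockout (26.2%) and in 4 of 66 wild-type cells (6.06%). Cdkn1a, a target gene of p53, was in 19 of 61 cells labelled knockout and in 31 of 66 wild-type cells. No label read here names the deleted part of Trp53, so its level over the whole gene may not check the label. The first group is therefore called cells labelled knockout throughout.

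Most members were among the most abundant transcripts of the sorted cells in both genotypes. Averaged over the 6 libraries, Fos was above 99.5% of the 11957 tested genes, Ier2 and Jun were above 99.2%, Junb above 98.3% and Egr1 above 98.2%. Klf6 and Atf3 stood above 90.01% and 89.3%, Klf2 above 67.9%, Klf4 above 39.3% and Fosb above 37.8%. The order thus had 3 tiers, since the lowest library of Fos, Ier2, Jun, Junb and Egr1 was above the highest of Klf6 and Atf3, and the lowest of these was above the highest of Klf2, Fosb and Klf4. Within a tier the ranges of neighbouring genes overlapped, except that the lowest library of Jun, at 431 FPKM, was above the highest of Junb, at 341 FPKM. The ranges of Klf2 and Klf4 overlapped, but Klf2 was above Klf4 within each of the 6 libraries.

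**Figure D1:**
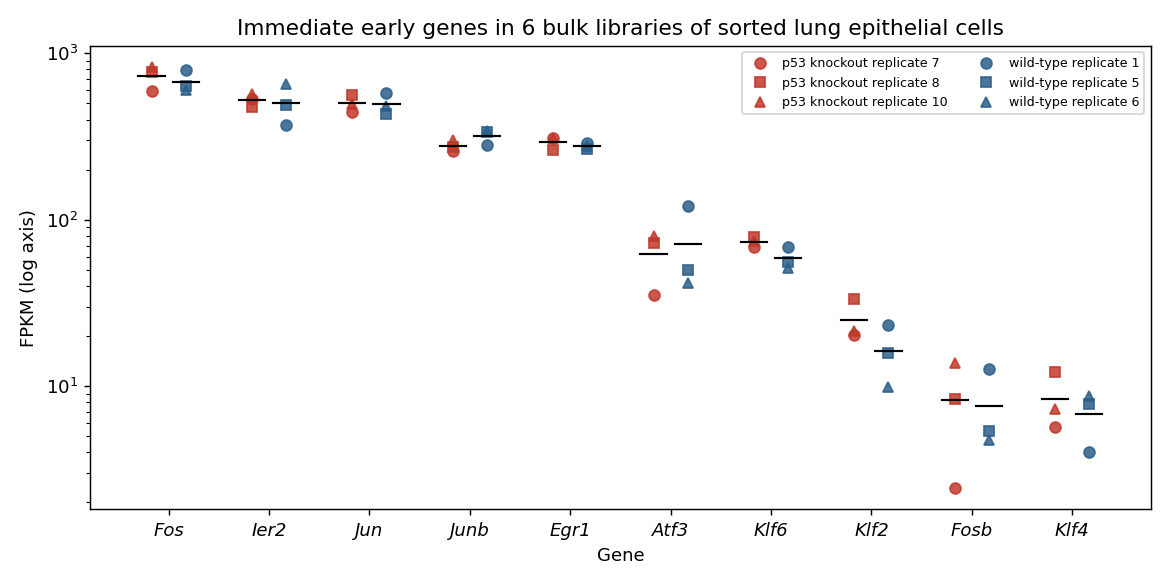
FPKM of the 10 genes on a log axis in the 3 p53 knockout libraries (left of each pair, red) and the 3 wild-type libraries (right, blue); bars are group means and symbols tell the replicates apart. The groups overlap for every gene but Klf6, whose lowest knockout library, at 68.8 FPKM, lies just above its highest wild-type library, at 68.5 FPKM.

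No member passed the test between genotypes in bulk. The limma fit on log2(FPKM + 1), adjusted over all 11957 tested genes, called 0 of 10 members, against a background of 1 called gene among all those tested (0.00836%). At an unadjusted p under 0.05 it had 1 member, Klf6, against 13.1% of all genes. The members' fold changes were positive for 7 and negative for 3, with a median log2 fold change of 0.09, against 0.01 over all tested genes. With array weights, which give less weight to libraries that fit the model less well, 1 member of 10 passed, again Klf6. In that fit 913 of the 11957 tested genes passed.

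Fos, the founding AP-1 partner of Jun, had 593, 774 and 828 FPKM in knockout libraries 7, 8 and 10, against 792, 633 and 604 FPKM in wild-type libraries 1, 5 and 6. The groups overlapped, and the log2 fold change was 0.11 (SE 0.208, 95% interval -0.39 to 0.60, limma adjusted p = 0.872). Fosb, a close relative that is expressed at a far lower level, had 2.44, 8.37 and 13.8 FPKM in the knockout libraries, against 12.7, 5.34 and 4.73 FPKM in the wild-type libraries. Its lowest and its highest value both came from a knockout library, and its log2 fold change was -0.02 (95% interval -1.37 to 1.33, limma adjusted p = 0.991). Jun, which can pair with itself or with Fos proteins, had 444, 565 and 496 FPKM in the knockout libraries, against 580, 431 and 481 FPKM in the wild-type libraries. These groups overlapped as well, with a log2 fold change of 0.02 (95% interval -0.42 to 0.45, limma adjusted p = 0.981). Junb, often an antagonist of Jun, had 260, 273 and 301 FPKM in the knockout libraries, against 283, 334 and 341 FPKM in the wild-type libraries. Knockout replicate 10 lay above wild-type replicate 1, so these groups overlapped too (log2 fold change -0.20, 95% interval -0.54 to 0.15, limma adjusted p = 0.611). In the annotation of the files' build (GENCODE M21, GRCm38) Junb overlaps Prdx2 and Jun overlaps Junos, each on the opposite strand. No source used here says that strand was used in counting, so reads of these partners cannot be told apart.

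Atf3, the stress-induced zipper factor, had 35.2, 72.7 and 79.6 FPKM in the knockout libraries, against 121, 50.1 and 41.6 FPKM in the wild-type libraries. Its values overlapped widely, with a log2 fold change of -0.10 (95% interval -1.20 to 0.99, limma adjusted p = 0.951). Fos, Fosb, Jun and Atf3 shared an order that did not follow genotype: each was higher in knockout replicates 8 and 10 and wild-type replicate 1 than in the other 3 libraries. That pattern was noticed in the values and has no test.

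Egr1, the zinc-finger factor, had the narrowest range of the 10 relative to its level, with 311, 263 and 309 FPKM in the knockout libraries, against 288, 267 and 278 FPKM in the wild-type libraries. Its log2 fold change was 0.08 (95% interval -0.24 to 0.41, limma adjusted p = 0.851). Ier2, the small nuclear protein, had 530, 475 and 570 FPKM in the knockout libraries, against 373, 490 and 652 FPKM in the wild-type libraries. Its wild-type libraries enclosed all knockout libraries (log2 fold change 0.09, 95% interval -0.46 to 0.64, limma adjusted p = 0.911).

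The Krüppel-like members had the largest positive fold changes of the 10, none of them past the threshold. Klf6 had 68.8, 78.7 and 74.04 FPKM in the knockout libraries, against 68.5, 55.8 and 51.6 FPKM in the wild-type libraries. It was the 1 member of 10 whose groups did not overlap, where 9.04% of tested genes were higher and 10.2% were lower without overlap. Its log2 fold change was 0.34 (SE 0.132, 95% interval 0.02 to 0.65, unadjusted p = 0.0388, limma adjusted p = 0.362). An exact permutation test over the 6 libraries, two-sided, gave p = 0.1, below which 3 against 3 cannot go. With array weights its limma adjusted p was 0.0364, and over all alternatives it ranged from 0.0364 to 0.794. Klf2 had 20.4, 33.4 and 21.6 FPKM in the knockout libraries, against 23.3, 15.9 and 9.95 FPKM in the wild-type libraries. These groups overlapped through wild-type replicate 1 (log2 fold change 0.63, SE 0.312, 95% interval -0.11 to 1.37, limma adjusted p = 0.435). Klf4 had 5.67, 12.1 and 7.26 FPKM in the knockout libraries, against 4.02, 7.78 and 8.69 FPKM in the wild-type libraries, and these overlapped (log2 fold change 0.25, 95% interval -0.52 to 1.03, limma adjusted p = 0.794).

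Without wild-type replicate 1, 0 members passed. The log2 fold change was then 0.45 for Klf6 (limma adjusted p = 0.0677), 0.91 for Klf2 (limma adjusted p = 0.154) and 0.23 for Fos. Those of Fosb and Atf3 turned positive, at 0.37 and 0.36, and those of Ier2 and Klf4 turned negative, at -0.11 and -0.04. The limma adjusted p-values without that library were all above the threshold for these genes.

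Several lists of cell type markers leaned to 1 side between the genotypes in bulk, though 0 of their genes passed the threshold (limma, adjusted over all genes). All 10 ciliated cell markers had positive fold changes (4 higher without overlap), with summed levels of 635 to 1088 FPKM in the knockout libraries and 209 to 668 FPKM in the wild-type libraries. Their mean log2(FPKM + 1) was 4.53 in wild-type replicate 1, near the 4.54 of knockout replicate 10. It was 3.22 and 3.14 in wild-type replicates 5 and 6. All 9 tested immune markers were lower without overlap, at 671 to 854 FPKM summed in the knockout libraries and 1068 to 2336 FPKM in the wild-type libraries. The 3 tested endothelial markers were lower without overlap for 2, and the 10 genes of that list summed to 75.5 to 114 FPKM in the knockout libraries and 104 to 135 FPKM in the wild-type libraries. Kdr, also tested, overlapped and had a log2 fold change of 0.10. The 7 tested fibroblast markers all had negative fold changes, 2 of them lower without overlap, and summed to 47.4 to 65.8 FPKM in the knockout libraries and 60.5 to 183 FPKM in the wild-type libraries. The 7 tested alveolar type 2 markers were negative as well, 4 of them lower without overlap, with a median log2 fold change of -0.72 and sums of 4190 to 4514 FPKM in the knockout libraries and 4801 to 9366 FPKM in the wild-type libraries. Over all tested genes 9.04% were higher and 10.2% were lower without overlap. Ptprc was not at 0, with 2.64, 0.817 and 1.27 FPKM in the knockout libraries, against 3.94, 4.12 and 3.15 FPKM in the wild-type libraries, while Pecam1 and Cdh5 were under 1 FPKM in every library. Their part in the members' values was not tested, and in bulk fewer cells of a type and less RNA per cell cannot be told apart.

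The rest of the immediate early programme had no member past the threshold either (limma, adjusted over all genes, in any of 6 further lists). Of 20 tested further transcription factors of the response, 0 passed and 5 had an unadjusted p under 0.05 by limma, where 13.1% of all tested genes did. The median log2 fold change was 0.00, with 11 positive and 9 negative. Ier5 had 21.9, 25.4 and 22.9 FPKM in the knockout libraries, against 29.7, 31.03 and 31.9 FPKM in the wild-type libraries, and Jdp2, an AP-1 repressor, had 23.2, 32.2 and 26.7 FPKM against 14.2, 19.004 and 19.6 FPKM in the same order of groups. Both were without overlap, Ier5 lower and Jdp2 higher in the knockout libraries (limma adjusted p = 0.308 each). Of these 20 factors 3 were higher and 4 lower without overlap, where 9.04% and 10.2% of all tested genes were. Of 22 tested feedback regulators, which shut the response down by degrading transcripts or blocking kinases, 18 had negative and 4 had positive fold changes, with a median of -0.17. Over all 11957 tested genes 5801 were negative. Among the 22 feedback regulators 1 was higher and 4 were lower without overlap, against the same 9.04% and 10.2%. Socs3, an inhibitor of cytokine signalling, led the feedback regulators with 15.3, 21.4 and 18.96 FPKM in the knockout libraries, against 36.3, 41.7 and 30.8 FPKM in the wild-type libraries (log2 fold change -0.93, SE 0.158, limma adjusted p = 0.200).

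Secreted and effector genes of the response leaned the other way, with 14 of 16 tested genes positive and a median log2 fold change of 0.45. Of all 11957 tested genes 6156 were positive. F3, which encodes tissue factor, had 129, 130 and 173 FPKM in the knockout libraries, against 45.1, 56.1 and 63.9 FPKM in the wild-type libraries (log2 fold change 1.37, SE 0.177, limma adjusted p = 0.144). Ctgf, a matricellular protein, had 32.6, 40.1 and 27.4 FPKM in the knockout libraries, against 5.31, 13.8 and 5.49 FPKM in the wild-type libraries (log2 fold change 2.00, SE 0.339, limma adjusted p = 0.200). Plaur and Per1 were also higher without overlap, which made 4 of 16, where 9.04% of all tested genes were; Per1 is named for this count after its values were seen. Among 11 heat shock genes 7 were positive and 4 negative, with Hspa1b (7.35, 7.64 and 5.51 FPKM in the knockout libraries, against 2.72, 3.06 and 2.98 FPKM in the wild-type libraries) and Dnajb1 higher without overlap, 2 of 11 against the same 9.04%. Of 9 tested further Krüppel-like genes 4 were positive, with Klf15 higher without overlap, and of 19 tested upstream kinases and serum response factor partners 9 were positive, with a median of -0.01.

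In the single cells, a gene was counted as detected at a TPM (a length-scaled share of the cell's transcripts) of at least 1. Cells labelled knockout had a median of 3580 detected genes and a median of 6.28% of TPM in the ERCC spike-in RNAs, and wild-type cells had 3130.5 and 13.2%. The tables of the chips were made separately, so differences between them have no test. Binomial intervals are exact, at 95%, and cover counting error only. The labelled cell types were checked with their markers: Scgb1a1 was detected in all 61 cells labelled knockout and in all 66 wild-type cells, and Epcam in 55 of 61 and in 41 of 66, in that order. Pecam1, Cdh5, Ptprc, Cd52 and Col1a1, defining genes of endothelial, immune and fibroblast cells, were detected in 0 of 61 and 0 of 66 cells, which allows shares of up to 4.92% and 4.55%. These limits are 3 cells of the total, cover counting error only and bear on cells with a TPM of at least 1, not on cells that express the gene. Other genes of these lists were detected, with cells labelled knockout first: Cd74 in 72.1% and 71.2% of cells, Lcp1 in 62.3% and 40.9%, Sparc in 32.8% and 36.4% and Kdr in 22.95% and 31.8%. Of the 10 immune genes 6 were found in any cell labelled knockout and 3 in any wild-type cell.

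Every member was detected on both chips, and 9 of 10 in a larger share of the cells labelled knockout. Most genes compared leaned the same way, with a median difference of mean log2(TPM + 1) of 0.25 over all of them. Only 21.5% of them had a smaller difference than Junb, at -0.03. For how many genes the detected share was larger was not counted. Fos was the most widely detected, in 60 of 61 cells labelled knockout (98.4%, interval 91.2 to 99.96) and in 52 of 66 wild-type cells (78.8%, 66.98 to 87.9). Jun was in 58 of 61 and in 57 of 66 cells, in the same order, and Ier2 in 55 of 61 and in 50 of 66. Egr1 was in 53 of 61 cells labelled knockout and in 47 of 66 wild-type cells. Junb was the exception, in 45 of 61 cells labelled knockout (73.8%, 60.9 to 84.2) and in 50 of 66 wild-type cells (75.8%, 63.6 to 85.5). Klf6 was in 51 of 61 cells labelled knockout (83.6%, 71.9 to 91.8) and in 37 of 66 wild-type cells (56.1%, 43.3 to 68.3). Klf4 was in 43 of 61 (70.5%, 57.4 to 81.5) and in 24 of 66 (36.4%, 24.9 to 49.1), again with cells labelled knockout first.

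Levels per cell spread from 0 to high values on both chips. In cells labelled knockout Fos ran from 0 TPM through a median of 321 TPM to 1406 TPM, and in wild-type cells from 0 through 153 to 1753 TPM. Egr1 ran from 0 through 138 to 1484 TPM in cells labelled knockout and from 0 through 91.3 to 1347 TPM in wild-type cells. Jun had medians of 76.6 TPM in cells labelled knockout and 52.5 TPM in wild-type cells, with maxima of 355 and 454 TPM. These 3 genes thus overlapped over nearly their whole range. Klf6 had medians of 65.4 TPM in cells labelled knockout and 2.79 TPM in wild-type cells, with maxima of 1011 and 432 TPM, and Klf4 medians of 7.19 and 0 TPM. Atf3 and Fosb had medians of 28.1 and 4.03 TPM in cells labelled knockout, and of 1.33 and 0.355 TPM in wild-type cells. Klf2 had a median of 0 TPM on both chips. It was detected in 17 of 61 cells labelled knockout (27.9%, 17.1 to 40.8), up to 378 TPM, and in 10 of 66 wild-type cells (15.2%, 7.51 to 26.1), up to 62.7 TPM. Pecam1, Cdh5 and Ptprc were detected in no kept cell of either chip. Their absence from those 17 and 10 cells was thus fixed beforehand and does not tell their cell type. Whether cells with Klf2 also held Kdr is not given here.

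By the difference of mean log2(TPM + 1), 5 of 10 members were at least 1 higher in cells labelled knockout and 0 were as far lower, where 8.03% of the 9486 genes compared were higher and 0.137% were lower. They were Klf6 (5.19 in cells labelled knockout and 2.98 in wild-type cells, difference 2.21), Fos (7.59 and 5.81, difference 1.77), Klf4 (2.95 and 1.44, difference 1.51), Egr1 (6.41 and 5.27, difference 1.13) and Atf3 (4.13 and 3.09, difference 1.05). The differences of the others were 0.85 for Ier2, 0.62 for Jun, 0.58 for Klf2, 0.15 for Fosb and -0.03 for Junb. The median was 0.95 over the members and 0.25 over all genes compared. On the linear scale the ratios of mean TPM, labelled knockout over wild type, were 5.73 for Klf2, 2.47 for Klf6, 1.93 for Klf4, 1.30 for Fos, 1.11 for Atf3, 1.07 for Ier2, 1.06 for Junb, 0.997 for Jun, 0.932 for Egr1 and 0.642 for Fosb. The direction of Egr1, Fosb, Jun and Junb thus depended on the scale: the first 3 were higher in cells labelled knockout by mean log2(TPM + 1) and lower by mean TPM, and Junb the reverse.

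The difference moved with the number of detected genes. Among cells with 3000 to 4000 detected genes, 26 labelled knockout and 27 wild type, 0 members were at least 1 higher (4.39% of genes were) and 1 was at least 1 lower (3.46% of genes were). That gene was Junb, at 2.74 in cells labelled knockout and 4.02 in wild-type cells, a difference of -1.29. Klf6 then differed by 0.29, Fos by 0.76, Klf4 by 0.35 and Egr1 by 0.17, and Atf3 turned negative, at -0.37. The median of the members was -0.16 and that of all genes -0.03. Fos was still detected in 26 of these 26 cells labelled knockout and in 22 of 27 wild-type cells (81.5%, 61.9 to 93.7), while Klf6 was in 69.2% and 70.4%. This range of detected genes was chosen after the data were seen.

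**Figure D2:**
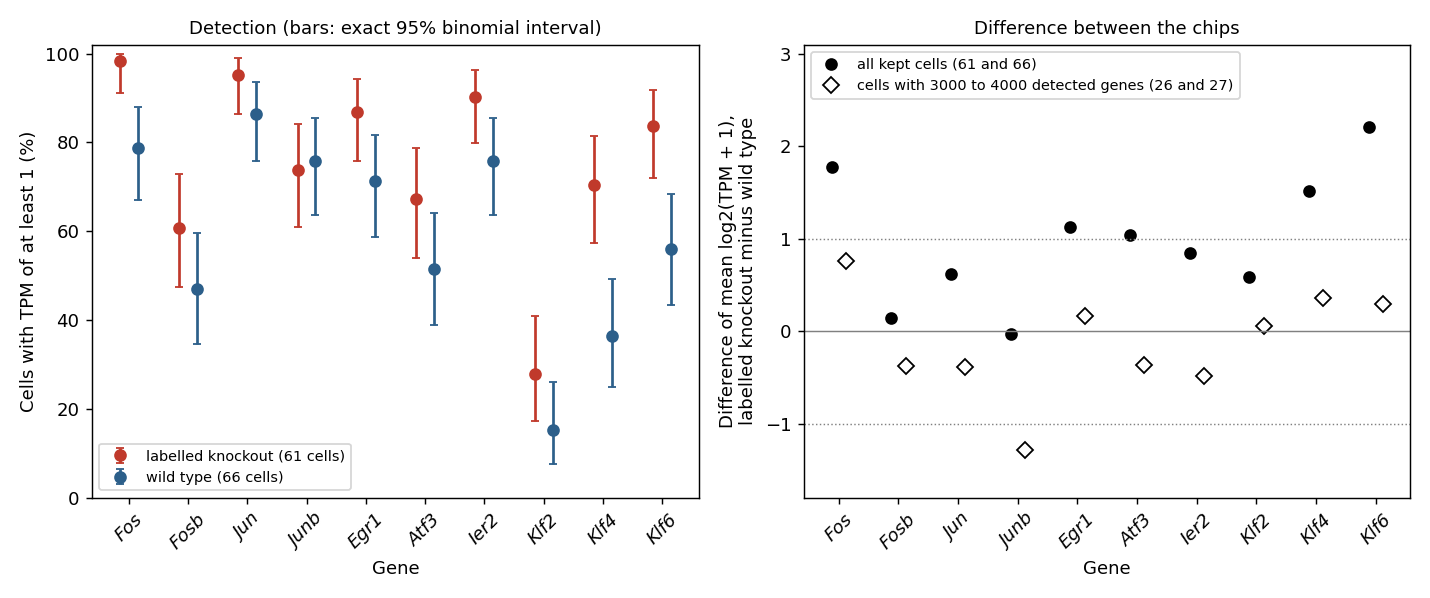
Left, percentage of cells with each gene at a TPM of at least 1, with exact 95% binomial intervals, in 61 cells labelled knockout (red, left of each pair) and 66 wild-type cells (blue). Right, difference of mean log2(TPM + 1), labelled knockout minus wild type, over all kept cells (filled) and over cells with 3000 to 4000 detected genes (open), with dotted lines at 1 and -1; 5 filled points lie above 1 and no open point does.

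Other genes of the response were compared between the chips in the same way, without a test, where 8.03% of all genes compared were at least 1 higher and 0.137% at least 1 lower. Of 17 feedback regulators compared, 4 were at least 1 higher in cells labelled knockout and 0 lower: Btg2 (difference 1.71), Zfp36 (1.53), Btg1 (1.18) and Nfkbia (1.01). Of 17 further transcription factors 2 were higher, Bhlhe40 (2.69 in cells labelled knockout and 0.50 in wild-type cells) and Ier3 (3.36 and 2.19), and 0 lower. Of 14 secreted and effector genes 1 was higher, F3 (3.16 in cells labelled knockout and 1.86 in wild-type cells), and of 11 heat shock genes 1 was lower, Dnaja1 (4.92 and 5.93), and 0 were higher. Of 7 further Krüppel-like genes 1 was higher, Klf10 (2.23 in cells labelled knockout and 1.06 in wild-type cells), and of 18 upstream kinases and serum response factor partners 1, Map3k1 (3.33 and 2.09). Among the cells with 3000 to 4000 detected genes, where 4.39% of genes were at least 1 higher and 3.46% at least 1 lower, Bhlhe40 (2.20), Zfp36 (1.28), F3 (1.13) and Map3k1 (1.03) still differed by at least 1, and so did Dnaja1, at -1.74. Zfp36l2 was at least 1 higher there as well, at 1.27. Phlda1 (-1.87), Gadd45a (-1.34), Sertad1 (-1.27), Dusp1 (-1.20), Nr4a1 (-1.11), Mapk3 (-1.05) and Hspe1 (-2.03) were at least 1 lower there. Zfp36l2 and these lower genes are named after their values were seen. Btg2 then differed by 0.08 and Klf10 by 0.25, and Btg1, Nfkbia and Ier3 turned negative, at -0.40, -0.79 and -0.34. Of 16 feedback regulators compared there 2 were higher and 2 lower, and their median was -0.44.

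Cells were then divided by whether Sftpc, the surfactant protein of alveolar type 2 cells, or Scgb1a1 had the higher TPM. This gave 15 Sftpc-dominant and 46 Scgb1a1-dominant cells labelled knockout, and 17 and 49 wild-type cells. Sftpc-dominant cells had fewer detected genes, with medians of 3196 against 3824 in Scgb1a1-dominant cells on the chip labelled knockout and 2633 against 3154 on the wild-type chip. Their median ERCC share of TPM was larger, at 15.4% against 5.68% on the chip labelled knockout and 22.1% against 11.04% on the wild-type chip. All 10 alveolar type 2 markers were at least 1 higher in Sftpc-dominant cells on both chips, Sftpc itself included, and 8 of 9 club markers on the chip labelled knockout and 9 of 9 on the wild-type chip were at least 1 lower, Scgb1a1 included. Cd74, from the immune list, was higher as well (9.15 in Sftpc-dominant and 5.04 in Scgb1a1-dominant cells labelled knockout, 10.3 and 3.35 in wild-type cells), with Ptprc and Cd52 in 0 cells. Lcp1, also from the immune list, was lower on the chip labelled knockout (1.93 in Sftpc-dominant and 2.98 in Scgb1a1-dominant cells) and higher on the wild-type chip (2.73 and 1.47). Kdr, from the endothelial list, was lower on both chips, at 0.08 in Sftpc-dominant and 1.05 in Scgb1a1-dominant cells labelled knockout, and at 0.03 and 1.62 in wild-type cells. Esam and Sparc, from the endothelial and fibroblast lists, were also at least 1 higher on both chips, with Pecam1, Cdh5 and Col1a1 in 0 cells.

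Fos was the 1 member at least 1 higher in Sftpc-dominant cells on both chips. On the chip labelled knockout its mean log2(TPM + 1) was 8.37 in Sftpc-dominant and 7.33 in Scgb1a1-dominant cells, a difference of 1.04, and on the wild-type chip it was 6.63 and 5.53, a difference of 1.11. Neither difference was at least 1 with pseudocount 10 (0.86 and 0.74). Where states were set by marker lists instead, Fos and Atf3 were both at least 1 higher on both chips, Atf3 by 1.497 on the chip labelled knockout and 1.41 on the wild-type chip. By the Sftpc and Scgb1a1 rule, higher on 1 chip were Atf3 on the chip labelled knockout (5.39 in Sftpc-dominant and 3.72 in Scgb1a1-dominant cells, difference 1.67, against 0.53 on the wild-type chip) and Fosb on the wild-type chip (3.40 and 2.30, difference 1.098, against 0.42 on the chip labelled knockout). On the chip labelled knockout 2 members were thus higher, where 4.43% of genes were, and on the wild-type chip also 2, where 4.08% of genes were.

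Ier2 was lower in Sftpc-dominant cells on both chips, by a difference of -0.61 on the chip labelled knockout (4.65 and 5.26) and of -1.49 on the wild-type chip (3.16 in Sftpc-dominant and 4.65 in Scgb1a1-dominant cells). Klf4 was lower on the chip labelled knockout, at 2.04 in Sftpc-dominant and 3.24 in Scgb1a1-dominant cells (difference -1.20), and by -0.18 on the wild-type chip. That made 1 member at least 1 lower on each chip, where 11% and 10.1% of genes were. Klf6 had a positive difference of 0.50 on the chip labelled knockout and a negative one of -0.73 on the wild-type chip, and Jun differed by -0.52 and 0.49. With states set by marker lists Klf6 was positive on both chips, at 0.72 and 0.26, and Egr1 turned positive on the wild-type chip, at 0.41. Junb, Egr1 and Klf2 had differences between -0.66 and 0.51 on both chips. Whether the chips differ in these state differences was not tested. Of the other lists, heat shock genes had 4 of 11 at least 1 lower in Sftpc-dominant cells on each chip and 0 higher, and feedback regulators had 3 of 17 higher and 2 lower on the chip labelled knockout and 2 of 17 higher and 3 lower on the wild-type chip.

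Among the cells with 3000 to 4000 detected genes, only 6 Sftpc-dominant and 20 Scgb1a1-dominant cells labelled knockout and 7 and 20 wild-type cells remained. There Fos differed between states by 1.80 on the chip labelled knockout and 0.88 on the wild-type chip, Atf3 by 4.02 and 1.94, Junb by 1.91 and 1.18, and Ier2 by -0.73 and -2.00. Klf4 differed by -1.55 on the chip labelled knockout and by 1.15 on the wild-type chip. The share of all genes at least 1 apart between states in so few cells is not given here. Whether the members stand out from it is thus not known.

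**Figure D3:**
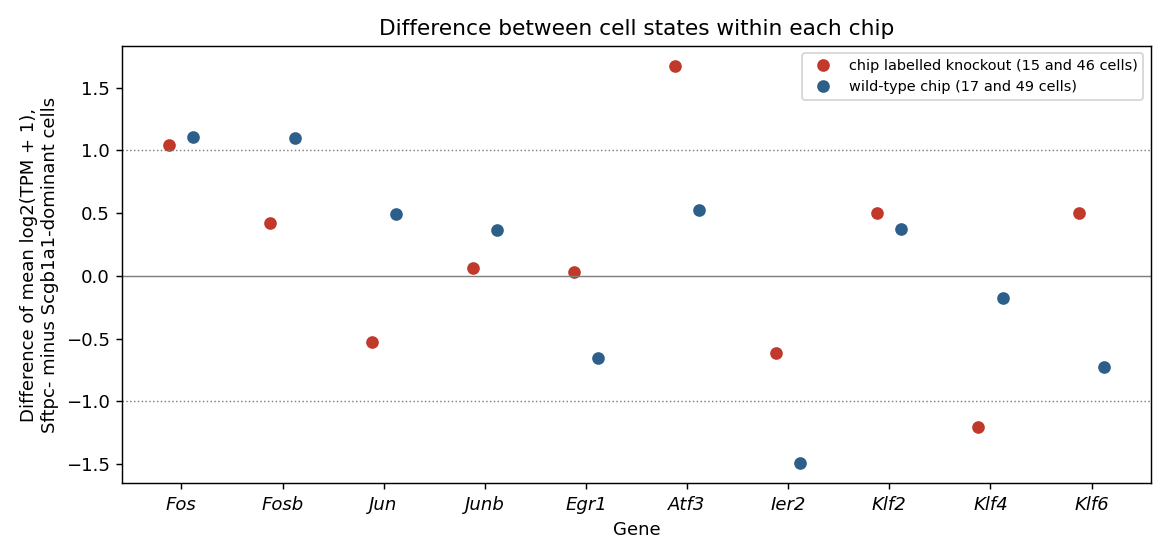
Difference of mean log2(TPM + 1) of each gene, Sftpc-dominant minus Scgb1a1-dominant cells, on the chip labelled knockout (red, 15 and 46 cells) and the wild-type chip (blue, 17 and 49 cells), with dotted lines at 1 and -1. Fos lies above 1 on both chips, at 1.04 and 1.11, and Klf6 and Jun lie on opposite sides of 0.

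Many cells held several members at once. A cell labelled knockout had a median of 8 of the 10 members and a wild-type cell a median of 7. Such counts reflect how widely each member was detected by itself, and the counts expected from independent detection were not computed. At least 8 members were detected in 37 of 61 cells labelled knockout (60.7%, 47.3 to 72.9) and in 22 of 66 wild-type cells (33.3%, 22.2 to 46.01). All 10 were in 8 cells labelled knockout and in 1 wild-type cell, and at most 3 were in 2 and in 14 cells, in the same order. In 3 wild-type cells 0 members were detected, and these cells had 1362 to 1604 detected genes. At 3000 to 4000 detected genes the shares with at least 8 members were 42.3% of 26 cells labelled knockout (23.4 to 63.1) and 40.7% of 27 wild-type cells (22.4 to 61.2).

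**Figure D4:**
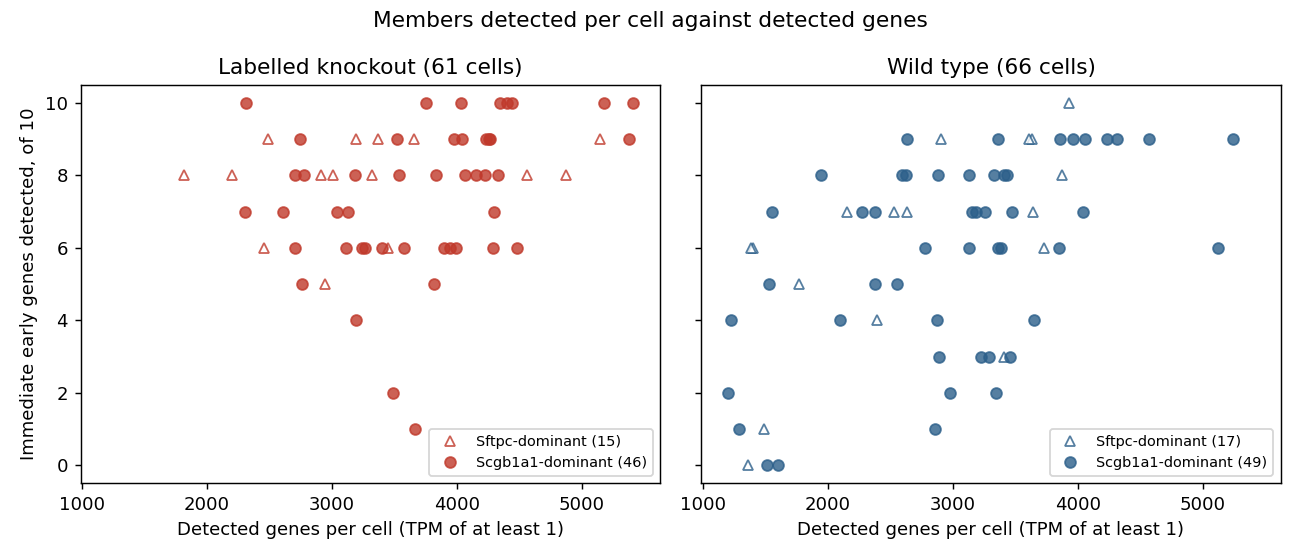
Number of the 10 genes detected in each cell against the cell's number of detected genes, for 61 cells labelled knockout (left) and 66 wild-type cells (right); open triangles are Sftpc-dominant and filled circles Scgb1a1-dominant cells. Cells with 0 members are seen on the wild-type chip alone, at 1362 to 1604 detected genes.

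The cells at the extremes are given by their values. A cell labelled knockout with 3665 detected genes had Fos at 83.7 TPM and each of the other 9 members under 1 TPM. A wild-type cell with 2856 detected genes had Klf4 at 15.8 TPM and no other member at 1 TPM or more. At the other end, a cell labelled knockout with 2316 detected genes held all 10 members, with Fos at 1406, Atf3 at 1189, Egr1 at 981 and Klf2 at 378 TPM. These cells were chosen for their values.

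Detection of Fosb, a scarcer member, went with that of Egr1 and Atf3. Across cells, the Pearson r of log2(TPM + 1) between Fosb and Egr1 was 0.59 on both chips. With Atf3 it was 0.52 on the chip labelled knockout and 0.58 on the wild-type chip. Fosb had a lower r with Ier2 (0.23 and 0.26), Klf4 (0.18 and 0.29) and Klf2 (0.24 and -0.05), in the same order of chips. On the chip labelled knockout Egr1 was in 36 of 37 cells with Fosb (97.3%) and in 17 of 24 cells without it (70.8%), and on the wild-type chip in 29 of 31 with Fosb (93.5%) and in 18 of 35 without it (51.4%). Atf3 was in 32 of 37 cells with Fosb (86.5%) and in 9 of 24 without (37.5%) on the chip labelled knockout, and in 25 of 31 (80.6%) and 9 of 35 (25.7%) on the wild-type chip. Cells with Fosb were deeper, with a median of 3835 detected genes against 3422.5 in cells without it on the chip labelled knockout, and 3365 against 2872 on the wild-type chip. Among cells above their chip's median of detected genes, Atf3 was in 20 of 21 cells with Fosb and in 2 of 9 without on the chip labelled knockout, and in 16 of 18 and 5 of 15 on the wild-type chip.

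Across cells of 1 chip, which share their chip and vary in depth, log2(TPM + 1) of the members was mostly positively correlated. Of 45 pairs, 41 had a positive Pearson r over the 61 cells labelled knockout, with a median of 0.30, and 42 over the 66 wild-type cells, with a median of 0.40. Given the number of detected genes the medians were 0.28 and 0.29. No such count or median over pairs of other genes is given here, so how common positive pairs are on these chips is not known. The highest pair was Fosb and Egr1 in cells labelled knockout (r = 0.59) and Fos and Egr1 in wild-type cells (r = 0.75). By its median r with the 9 other members, Klf4 was lowest in cells labelled knockout (0.08), before Ier2 (0.19) and Klf2 (0.24), and Klf2 was lowest in wild-type cells (0.06), before Klf4 (0.22). It was 0.44 and 0.50 for Atf3 and 0.41 and 0.50 for Jun, with cells labelled knockout first.

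**Figure D5:**
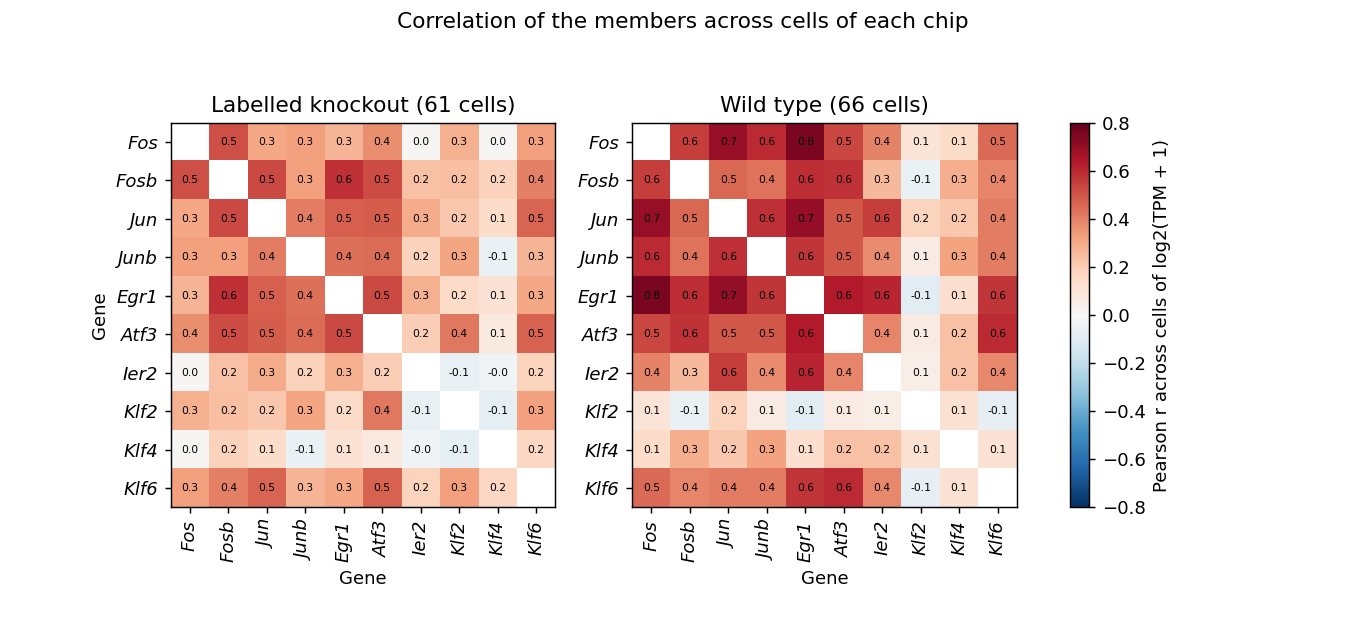
Pearson r of log2(TPM + 1) between each pair of the 10 genes across 61 cells labelled knockout (left) and 66 wild-type cells (right), on a colour scale from -0.8 (blue) to 0.8 (red) with rounded values in the fields. The row of Klf4 is pale on both chips and that of Klf2 on the wild-type chip, and the field of Fos and Egr1 in wild-type cells, at 0.75, is the darkest.

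Genes outside the members were ranked by the smaller of the chips' r with the members' mean log2(TPM + 1), among 4534 genes detected in at least 20% of the cells of each chip, whose median was 0.05. Among the 8 highest were Gm17056 (r = 0.63 in cells labelled knockout and 0.62 in wild-type cells), Zfp36 (0.59 and 0.56), Dusp1 (0.52 and 0.72), Nr4a1 (0.50 and 0.53), Gm12940 (0.48 and 0.48), Errfi1 (0.47 and 0.55) and Actg1 (0.46 and 0.44). Zfp36 encodes a protein that speeds decay of short-lived transcripts, Dusp1 a phosphatase of MAP kinases, Nr4a1 an orphan nuclear receptor, Errfi1 an inhibitor of epidermal growth factor receptor and Actg1 a cytoplasmic actin. Gm17056 is annotated as antisense to Lsmem1 on chromosome 12, so their reads cannot be told apart without strand. Gm12940 overlaps Sfpq on chromosome 4 on the same strand, so the counting may have split reads between them and its value is uncertain. Given the number of detected genes the order was led by Dusp1, Nr4a1 and Zfp36, followed by Gm17056 and Errfi1, while Gm12940 and Actg1 took places 26 and 32.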

How the data were processed

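Bulk libraries were compared as FPKM that the authors deposited, for which the submitters' processing notes name TopHat, Bowtie2, Cufflinks and mm10, and single cells as TPM that the authors deposited in a table per chip, for which the submitters' processing notes name Bowtie 1.1.1, RSEM 1.2.20 and GRCm38. How Cufflinks was set to normalize is unknown here. The lowest deposited FPKM is 0.01, and 12 genes with a marked entry, none a member, were left out. Bulk values were fitted with limma 3.58.1 in R 4.3.3 (two-sided moderated test, eBayes options trend and robust, Benjamini-Hochberg adjustment, threshold 0.05) as log2(FPKM + 1) over the 11957 genes that reached 1 FPKM in 3 or more of the 6 libraries; this scale understates changes of low genes. Whether each library is a separate animal is not stated, and the p-values may thus reflect technical spread.

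Wells with a debris or valve remark (3 labelled knockout, 1 wild type) and cells under 1000 detected genes (3 and 6) were left out, and 2 knockout samples had no matched column. Genes compared between cells were detected in at least 10% of either side, and ERCC rows were not counted as genes (pandas 2.3.3, numpy 2.4.6, scipy 1.17.1). Both fits were tested on simulated data. Named genes were the members, Trp53, up to 4 genes of each list by bulk p or cell difference, and the 8 genes of highest likeness, of which 1 is not reported here. The members, lists and rules were chosen with earlier results of these data known. Alternatives were other pseudocounts, filters, scalings, weights, detection limits, state rules and left-out libraries.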

Additional observations from a re-analysis of the deposited data

Results flagged for a closer look

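Klf6 was set apart because its difference between Sftpc-dominant and Scgb1a1-dominant cells had opposite signs on the chips, 0.501 on the chip labelled knockout and -0.727 on the wild-type chip. With states set by marker lists it was positive on both, at 0.724 and 0.263. The difference between the chips was not tested.

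The off-chip controls of the chip labelled knockout lie outside the comparisons. In the positive control Fos had 198.76 TPM, Fosb 9.31, Jun 24.05, Junb 11.23, Egr1 67.89, Atf3 32.71, Ier2 39.85, Klf2 6.62, Klf4 14.6 and Klf6 20.78 TPM, while all 10 members were at 0 in the negative control. Of the wells with a debris or valve remark, 3 of the chip labelled knockout had 9, 7 and 8 members detected and 1 of the wild-type chip had 10, with 3486 to 4232 detected genes. Their members' values lie within the range of the kept cells; in the wild-type well Fos had 574.2 TPM and Egr1 460.69 TPM.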

How the results depend on the processing

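No paired analysis was possible because the bulk genotypes share no replicate number and cell numbers only name cells. In bulk, 1 gene passed over all genes; 2 passed with pseudocount 0.1, 3 without the filter and 913 with array weights, and 1 to 408 with a library left out, 408 (337 higher, 71 lower) without wild-type replicate 1. Of the members 0 passed, and 1 with array weights. Members' fold changes kept their sign in all but 13 of 100 alternatives: Jun was -0.0092 with libraries scaled to equal medians, Fosb 0.22 and Atf3 0.19 with array weights, and with a library left out Fosb ran from -0.48 to 0.57, Jun from -0.082 to 0.13, Atf3 from -0.40 to 0.36, Ier2 from -0.11 to 0.29 and Klf4 from -0.039 to 0.47. Between the chips 5 members were at least 1 apart, 2 with pseudocount 10, 7 with pseudocount 0.1, 4 without ERCC rows, 3 with at least 2000 detected genes, 3 in Scgb1a1-dominant and 5 in Sftpc-dominant cells, and 1 at 3000 to 4000 detected genes: Junb, lower, none of the 5 (Atf3 was -0.37). Between states it was 3 on each chip, but 1 on the chip labelled knockout and 0 on the wild-type chip with pseudocount 10, and 7 and 5 at 3000 to 4000 detected genes. For these alternatives between states the share of all genes is not given here. The range of 3000 to 4000 and the comparisons within a state were chosen after seeing the data. At least 8 members were in 60.7% of cells labelled knockout and 33.3% of wild-type cells at a TPM of 1, and in 31.1% and 25.8% at a TPM of 10. The causes were not tested. Unknown read depth limits detection in single cells, and 3 libraries a side limit bulk.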
